A study of Mus musculus with 17 samples.

Results

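The uninjured lumbar dorsal root ganglia (DRGs) of control mice were profiled by RNA-Seq in 4 of the 17 libraries of the series, chosen by their labels as the basal samples without Cre, and no measured value was used to choose them. These control animals are Mtorfl/fl mice, which carry Mtor alleles flanked by loxP sites, have no Cre recombinase and had no surgery. They are called WT in the labels, although their Mtor alleles are floxed. Each library holds the bilateral L4 and L5 DRGs of a single mouse, 4 ganglia pooled, so the mouse is the replicate. For comparison, 4 libraries came from uninjured Adv-Cre::Mtorfl/fl mice (Mtor-cKO Adv), in which a Cre driven by the Advillin gene is targeted to primary sensory neurons, and 5 came from Mtorfl/fl mice 7 days after bilateral spared nerve injury (SNI), in which branches of the sciatic nerve are cut and one is spared. The remaining 4 libraries, of Mtor-cKO Adv mice after SNI, entered the common fit. The sex and age of the profiled mice are not in the labels, and the values of a pooled ganglion average over all its cells.

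A DRG holds the cell bodies of sensory neurons, which send one branch to skin, muscle or viscera and another to the spinal cord. Large neurons with myelinated axons carry touch and limb position, whereas small neurons carry pain, itch and temperature and are divided into peptidergic neurons, which release calcitonin gene-related peptide (CGRP) and substance P, and nonpeptidergic neurons. Each cell body is wrapped by satellite glia, the axons by Schwann cells, and the ganglion also contains macrophages, fibroblasts and vessels. In a whole ganglion, a lower level of a transcript from fewer cells of a type cannot be told apart from less RNA per cell.

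The total expected count of a library was 17060876 to 19375972 in the 4 Mtorfl/fl baseline libraries and at most 21076542 elsewhere in the series. Levels are given in FPKM, fragments normalised to transcript length and sequencing depth, which allows levels to be compared between genes. The summed FPKM of Mtorfl/fl baseline replicates 1 to 4 was 382990.5, 381869.3, 444885.0 and 439499.5. The same FPKM is therefore a smaller share of the total in replicates 3 and 4, and levels were not rescaled for this. Mtor, the targeted gene, was at 3.16, 3.87, 5.81 and 6.36 FPKM in uninjured Mtor-cKO Adv libraries and at 15.97, 8.58, 9.77 and 9.82 FPKM in uninjured Mtorfl/fl libraries, with no overlap. The 4 libraries of interest did not vary evenly around their mean. Over the 6592 genes that averaged 10 FPKM or more, the Pearson correlation of log2 levels was 0.992 between replicates 1 and 2 and 0.987 between replicates 3 and 4, but 0.928 to 0.941 for the other 4 pairs. These are correlations across genes, which are not independent replicates. No pair was a repeated deposit, since counts differed beyond sampling noise in each of the 6 pairs (chi-square per degree of freedom 12.9 for replicates 1 and 2, 20.3 for replicates 3 and 4 and at least 116.8 for the others).

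The difference went with transcript length. In the 1648 shortest of those genes (median length 1118 bases, as implied by counts and FPKM), the median deviation from the mean of the 4 libraries was -0.23, -0.27, 0.28 and 0.22 on the log2 scale in replicates 1 to 4. In the 1648 longest (median length 5092 bases) it was 0.10, 0.13, -0.14 and -0.10. Short transcripts were therefore lower in replicates 1 and 2 and higher in replicates 3 and 4, and long transcripts the reverse. The labels name no batch, and the cause of the split was not tested. Because of it, the values of the 4 libraries are given one by one, in the order of replicates 1 to 4, and counts are also given with either pair of libraries left out. Of all genes that averaged 1 FPKM or more, 17.2%, 18.4%, 31.2% and 33.2% were highest in replicates 1 to 4. Counts of list members highest in a library are to be read beside these shares. Deviations from the mean of all 17 libraries were also correlated with length across genes (Spearman). The values were 0.45, 0.52, -0.56 and -0.605 in Mtorfl/fl baseline replicates 1 to 4. They were 0.44, 0.01, 0.11 and -0.20 in uninjured Mtor-cKO Adv libraries and 0.21, 0.19, -0.17, 0.18 and -0.53 in Mtorfl/fl libraries after SNI.

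Of 19152 genes in the table, 12932 (67.5%) averaged 1 FPKM or more, 6592 had at least 10 FPKM, 765 had at least 100 FPKM and 28 had at least 1000 FPKM. There were 12208 genes at or above 1 FPKM in every library and 1006 genes with 0 counts in all 4. With replicates 3 and 4 left out, 12542 genes reached a mean of 1 FPKM, and with replicates 1 and 2 left out, 13166 did. The 100 most abundant genes held 21.3% ± 0.541 of the summed FPKM (SD, n = 4), the first 10 held 5.35% ± 0.313 and the first 1000 held 55.8% ± 1.27. In single libraries, 50% of the FPKM was held by 773, 760, 660 and 704 genes. Membership of this upper end was fairly fixed: 72 genes were among the 100 most abundant in every library and 134 in at least 1, and for the first 30 ranks these numbers were 25 and 34. The exact order was not, because each of the 30 neighbouring pairs from rank 1 on had overlapping ranges and none kept the same order in all 4 libraries. Mitochondrially encoded genes are not among the genes of the table, so ranks and shares refer to nuclear genes.

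The most abundant transcript was Tuba1a, an alpha-tubulin of neurons, at 2967, 3121, 3055 and 3077 FPKM, a mean of 3055 ± 64.3 (SD, n = 4). It was also among the steadiest, with a coefficient of variation (CV) of 2.11%. Sncg, gamma-synuclein, a protein of sensory axons, was second by its mean of 2788 ± 662 FPKM, with 2083, 2399, 3152 and 3519 FPKM, so that it lay below Tuba1a in replicates 1 and 2 and above it in replicates 3 and 4. The plot of the most abundant genes shows that some genes were tightly grouped and others spread more than 2-fold between libraries.

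**Figure D1:**
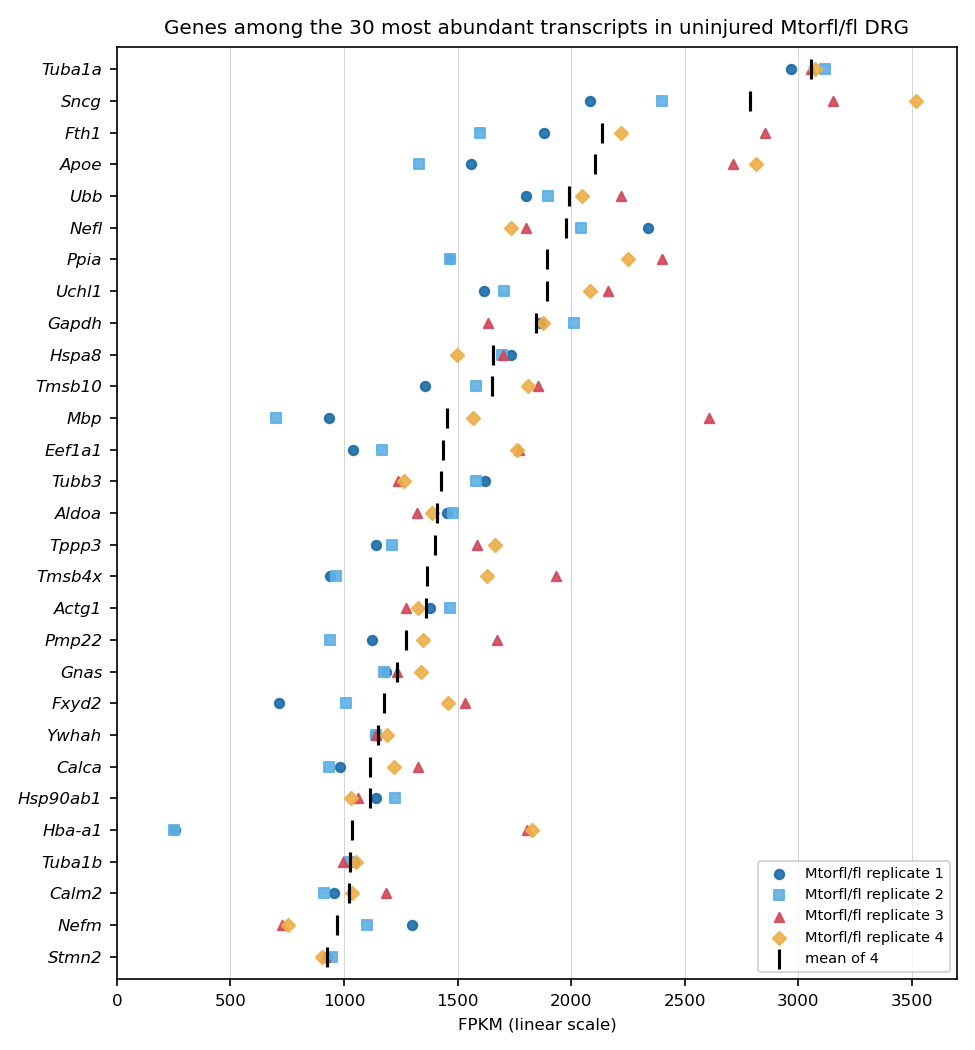
FPKM (x axis, linear scale from 0) of genes among the 30 with the highest mean in uninjured Mtorfl/fl DRG (y axis, highest at the top). Each symbol is a library and the black tick is the mean of 4. Tuba1a sits between 2967 and 3121 FPKM in all libraries, whereas Hba-a1 is near 250 FPKM in replicates 1 and 2 and above 1800 FPKM in replicates 3 and 4.

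Several of the first 30 genes encode the cytoskeleton of the axon. The tubulins Tuba1a, Tubb3 (1427 ± 202 FPKM) and Tuba1b (1028 ± 25.0 FPKM) were there, with Nefl (1979 ± 273 FPKM) and Nefm (970 ± 278 FPKM), the light and medium neurofilament chains that set axon calibre. Stmn2, which regulates microtubules in growing axons, had 927, 948, 916 and 902 FPKM. Tubb3 was at 1623, 1579, 1238 and 1266 FPKM and Nefl at 2337, 2042, 1800 and 1736 FPKM, both higher in replicates 1 and 2. As families, the 15 tubulin genes took 2.06%, 2.12%, 1.63% and 1.69% of all FPKM, with 6 of them in the first 100. The 4 neurofilament genes together with peripherin took 1.40%, 1.25%, 0.865% and 0.887%. Both families thus held a smaller share in replicates 3 and 4.

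Uchl1, a neuronal ubiquitin hydrolase, had 1615, 1705, 2163 and 2086 FPKM, and the ubiquitin gene Ubb had 1801, 1899, 2220 and 2050 FPKM. Fth1, the heavy chain of the iron store ferritin, averaged 2138 ± 540 FPKM. Gapdh and Aldoa, enzymes of glycolysis, averaged 1847 ± 156 and 1410 ± 71.5 FPKM, and the chaperones Hspa8 and Hsp90ab1 averaged 1657 ± 108 and 1114 ± 86.5 FPKM. Fxyd2, a modulator of the sodium pump, was at 716, 1009, 1531 and 1457 FPKM, higher in replicates 3 and 4. Others of the first 30 were the actin gene Actg1 (1361 ± 82.2 FPKM), the actin-binding thymosins Tmsb10 (1650 ± 229 FPKM) and Tmsb4x (1366 ± 494 FPKM), the tubulin-binding protein gene Tppp3 (1401 ± 263 FPKM), the G protein gene Gnas (1233 ± 74.1 FPKM), the 14-3-3 gene Ywhah (1151 ± 25.3 FPKM) and the calmodulin gene Calm2 (1023 ± 120 FPKM), with Ppia, Eef1a1, Apoe, Mbp, Pmp22, Calca and Hba-a1, which appear below.

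Families of shared machinery also held sizeable shares. The 86 cytosolic ribosomal protein genes took 3.20%, 3.25%, 5.65% and 5.30% of all FPKM, yet only 3 of them, Rpl41, Rplp1 and Rpl23a, were in the first 100. The 79 nuclear genes of oxidative phosphorylation subunits took 2.53%, 2.38%, 3.43% and 3.06%. These short transcripts were higher in replicates 3 and 4, in the direction of the length pattern above. The 18 glycolytic enzyme genes took 1.64%, 1.70%, 1.24% and 1.35%, of which Gapdh alone held 0.452% of all FPKM by its mean and Aldoa 0.345%. Genes with near-identical copies, such as Ppia, Eef1a1, Tuba1a and Tuba1b, the alpha-globins and the ribosomal proteins, share reads with paralogs or pseudogenes, so the split of FPKM between copies is uncertain.

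Core promoters were examined for the TATA box, an element just upstream of the start of some genes, to show what the start regions of the most abundant transcripts hold. The letters TATAAA were searched on the sense strand from 45 to 15 bases before the start annotated by RefSeq (GRCm38.p6). Of the first 100 genes, 70 matched an entry of the promoter table and 5 of these (7.14%) held TATAAA. The share was 150 of 10282 (1.46%) among genes that averaged 1 FPKM or more and 695 of 27025 (2.57%) among all genes of the promoter table. A gene counted once if any of its promoters matched. On the opposite strand the counts were 1 of 70, 47 of 10282 and 245 of 27025. A match is a description of the letters and not evidence of use. The 5 matches are shown 5′ to 3′ as the 60 bases that end just before the start, with TATAAA in capitals. Their genes encode a peptidyl-prolyl isomerase (Ppia), the intermediate filament peripherin of small sensory neurons (Prph), a neuronal protein of the NDRG family (Ndrg4), a beta-tubulin (Tubb2a) and a regulator of G protein signalling (Rgs4).
Ppia: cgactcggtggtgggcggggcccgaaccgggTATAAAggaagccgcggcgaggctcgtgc
Prph: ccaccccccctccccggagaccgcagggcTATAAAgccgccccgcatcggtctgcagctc
Ndrg4: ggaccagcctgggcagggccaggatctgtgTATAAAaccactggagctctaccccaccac
Tubb2a: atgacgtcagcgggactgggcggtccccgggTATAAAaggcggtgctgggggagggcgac
Rgs4: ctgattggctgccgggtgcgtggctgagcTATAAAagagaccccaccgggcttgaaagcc
In GRCm38.p6 these stretches lie on chr11:6415807-6415866 (plus strand), chr15:99055114-99055173 (plus strand), chr8:95702996-95703055 (plus strand), chr13:34078009-34078068 (minus strand) and chr1:169747643-169747702 (minus strand), in the order listed. The box began between 29 and 31 bases before the start in all 5. Ppia, the most abundant of them, was at 1466, 1465, 2399 and 2250 FPKM, and Prph was at 900.0, 945.8, 842.1 and 935.5 FPKM. Ndrg4 (752 ± 101 FPKM), Tubb2a (454 ± 28.3 FPKM) and Rgs4 (440 ± 38.1 FPKM) ranked 36, 92 and 95.

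The label of the tissue was checked against markers. All 22 pan-neuronal genes were above 10 FPKM, 16 were above 100 FPKM and 12 were among the first 100 genes, with a median of 519 FPKM. Avil, which encodes Advillin and is used to mark primary sensory neurons, was at 280, 310, 194 and 228 FPKM. Pou4f1 and Isl1, the transcription factors that define sensory neurons, averaged 48.6 ± 7.04 and 35.5 ± 1.93 FPKM. Rbfox3 (the neuronal nuclear antigen NeuN) averaged 78.3 ± 16.7 FPKM. Markers of the spinal cord were near absent: 8 of 9 had a mean under 1 FPKM, and the myelin gene Mog, the oligodendrocyte factors Olig1 and Olig2 and the inhibitory transmitter enzymes Gad1 and Gad2 ranged from 0 to 0.42 FPKM. The exception was the water channel gene Aqp4, at 2.57, 1.72, 2.24 and 2.27 FPKM. Transcripts of the Y-linked genes Ddx3y (10.7 to 12.5 FPKM) and Eif2s3y (13.7 to 17.1 FPKM) were present at like levels in all 4 libraries.

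Both main classes of sensory neuron were represented. Spp1 and Pvalb, markers of proprioceptors and other large neurons, had 138, 75.9, 137 and 101 FPKM and 109, 53.5, 126 and 85.8 FPKM, lowest in replicate 2. Slc17a7, a vesicular glutamate transporter of large neurons, was at 102, 81.5, 69.5 and 65.2 FPKM. Of the 14 large-neuron markers, 10 were highest in replicate 1. Runx3, the factor that specifies proprioceptors, was the lowest of them at 4.00 ± 0.928 FPKM.

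Of the markers of nonpeptidergic neurons, Ret, the receptor for GDNF family ligands, averaged 123 ± 28.5 FPKM, P2rx3, an ATP-gated channel, 109 ± 7.50 FPKM, and Mrgprd, a receptor of polymodal nociceptors, 51.4 ± 9.49 FPKM. Here 10 of 14 genes were highest in replicate 2, and the summed level of the list was 609, 774, 599 and 612 FPKM. Th, tyrosine hydroxylase, which in the DRG marks C low-threshold mechanoreceptors, was at 41.2, 71.4, 54.3 and 75.4 FPKM. Neuron classes therefore did not vary together across the 4 mice: replicate 1 was highest for most large-neuron markers and replicate 2 for most nonpeptidergic ones.

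Peptide transmitters covered a wide range of levels. Calca, which encodes CGRP, was at 981, 934, 1328 and 1220 FPKM and ranked 24 of all genes, and Tac1, the precursor of substance P, was at 233, 217, 307 and 298 FPKM. Both were higher in replicates 3 and 4, and their ratio hardly moved: Calca over Tac1 was 4.21, 4.31, 4.33 and 4.09. Nmb, the neuromedin B precursor, averaged 153 ± 41.8 FPKM and Calcb, the second CGRP gene, 99.2 ± 17.1 FPKM. Adcyap1, which encodes the peptide PACAP, followed at 33.2 ± 3.30 FPKM.

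A middle group comprised Nppb (18.3 ± 7.11 FPKM) and Sst (14.3 ± 7.51 FPKM), peptides of itch neurons, Gal (16.95 ± 2.93 FPKM), Cartpt (15.1 ± 4.66 FPKM), Penk (10.9 ± 4.63 FPKM) and Nts (7.47 ± 1.49 FPKM). Sst was the least even of them at 5.19, 11.2, 21.6 and 19.2 FPKM, while Nppb followed the same order at 10.2, 15.2, 26.5 and 21.4 FPKM. Neighbours from Nppb to Penk had overlapping ranges and cannot be ranked against each other. Npy was detectable but low, at 2.54, 2.15, 1.26 and 3.93 FPKM. The precursors Pomc, Cck, Ucn, Pdyn, Crh, Grp and Vip all had a mean under 1 FPKM, from 0.490 FPKM for Pomc to 0.0250 FPKM for Vip. In sum, 12 of 19 precursors reached 1 FPKM, and 12 of 19 were highest in replicate 3.

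The proteins that pack and process peptides were all expressed, with 11 of 11 above 10 FPKM. Scg3, a granin of secretory granules, was at 441, 528, 385 and 374 FPKM, and Cpe, the carboxypeptidase that trims peptide ends, was at 317, 330, 323 and 304 FPKM. Pcsk1n, an inhibitor of prohormone convertase, averaged 271 ± 54.9 FPKM. Of the convertases themselves, Pcsk2 averaged 57.3 ± 12.7 FPKM and Pcsk1 20.3 ± 5.93 FPKM, with no overlap between their ranges.

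Voltage-gated sodium channels, which generate the action potential, include the nociceptor channels Scn10a (Nav1.8) and Scn11a (Nav1.9). Scn10a was at 184, 224, 129 and 129 FPKM and Scn11a at 101, 134, 76.0 and 78.3 FPKM, both highest in replicate 2 and lower in replicates 3 and 4. Within a library they kept a ratio of 1.82, 1.67, 1.70 and 1.65. The beta subunit gene Scn4b averaged 67.3 ± 17.1 FPKM. Scn9a (Nav1.7) averaged 45.9 ± 14.8 FPKM, and its values of 55.0, 61.8, 35.6 and 31.2 FPKM lay below those of Scn11a in every library. The channels of large myelinated axons were lower: Scn8a (Nav1.6) averaged 20.5 ± 8.27 FPKM and Scn1a (Nav1.1) 14.5 ± 4.91 FPKM. Scn2a1 and Scn3a were under 1 FPKM by mean, at 0.950 ± 0.243 and 0.510 ± 0.0455 FPKM. The whole list summed to 716, 790, 543 and 538 FPKM.

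**Figure D2:**
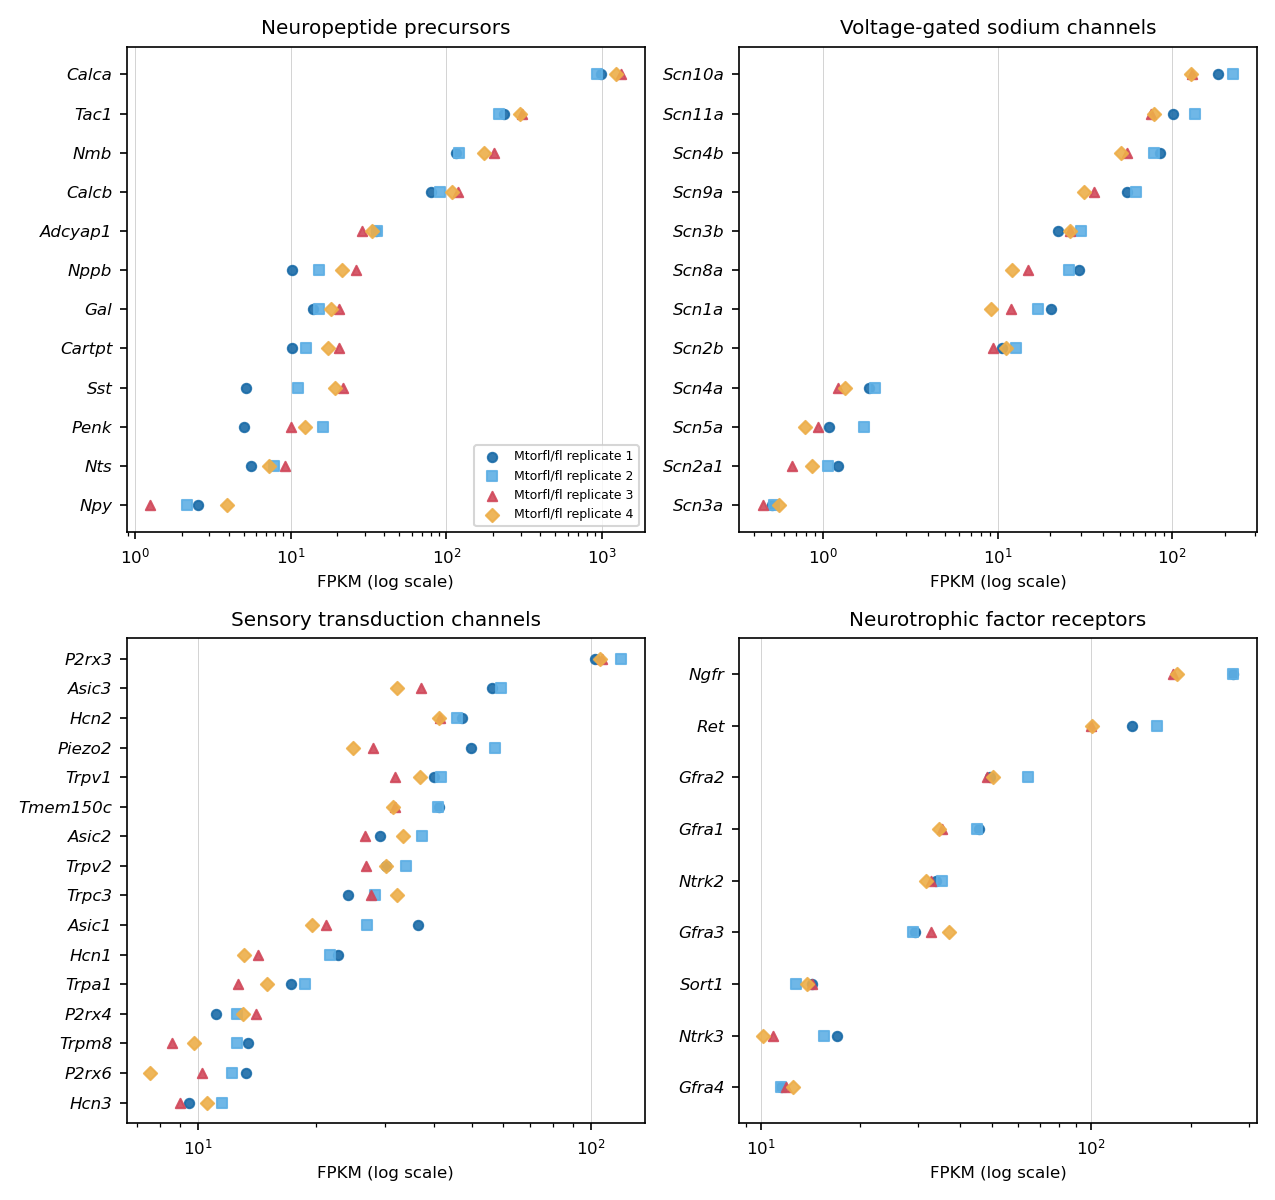
FPKM (x axes, log scale) of the more abundant neuropeptide precursors, voltage-gated sodium channels, sensory transduction channels and neurotrophic factor receptors (y axes, highest mean at the top of each panel) in the 4 uninjured Mtorfl/fl libraries, 1 symbol per library. Calca lies near 1000 FPKM and Npy between 1.26 and 3.93 FPKM, and Scn10a and Scn11a are lower in replicates 3 and 4.

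Of 36 potassium channel genes, 34 reached 1 FPKM and 21 reached 10 FPKM. The auxiliary subunit Kcnab2 was highest at 280, 313, 220 and 220 FPKM, followed by Kcnip4, a partner of A-type channels, at 94.3, 114, 109 and 108 FPKM. Of the pore-forming subunits, Kcna1 (63.9 ± 16.1 FPKM), Kcnd1 (59.2 ± 12.9 FPKM) and Kcna2 (41.9 ± 12.1 FPKM) led, with overlapping ranges. Only 2 of the 36 were highest in replicate 3 and 2 in replicate 4.

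Among 20 calcium channel genes, the beta subunit Cacnb3 was highest at 138, 154, 121 and 146 FPKM. Cacna2d1, the subunit bound by gabapentin, had 46.9, 50.4, 36.6 and 32.6 FPKM. The pore of the N-type channel, Cacna1b, averaged 16.5 ± 5.45 FPKM, that of the P/Q-type channel, Cacna1a, 12.96 ± 4.65 FPKM, and that of the T-type channel Cav3.2, Cacna1h, 7.00 ± 1.89 FPKM. The other T-type pores were low, with Cacna1i at 1.23 ± 0.347 FPKM and Cacna1g at 0.413 ± 0.124 FPKM.

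Of 34 channels that detect stimuli, 28 reached 1 FPKM and 16 reached 10 FPKM. P2rx3 was the highest at 103, 120, 107 and 106 FPKM. Piezo2, the channel of touch and proprioception, was at 49.5, 57.2, 28.0 and 24.9 FPKM, and its long transcript was lower in replicates 3 and 4. Piezo1 was at 1.00, 1.38, 1.25 and 2.30 FPKM, so Piezo2 exceeded it in every library, by a ratio of 49.5, 41.5, 22.4 and 10.8.

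Trpv1, the receptor of heat and capsaicin, was at 40.04, 41.5, 31.8 and 36.7 FPKM. Trpa1, the receptor of irritants, averaged 15.9 ± 2.64 FPKM and Trpm8, the receptor of cold, 11.1 ± 2.29 FPKM. Trpv1 exceeded Trpa1 in each library, by a ratio of 2.32, 2.22, 2.51 and 2.45. Asic3 and Asic1, channels gated by protons, averaged 46.1 ± 13.5 and 26.1 ± 7.63 FPKM, and Hcn2, a pacemaker channel, 43.8 ± 2.99 FPKM. Trpm3, a heat channel, was the steadiest, at 6.30, 6.30, 6.20 and 6.60 FPKM. Trpv4 (0.780 ± 0.288 FPKM), Trpc5, Trpv3, Asic4, Tmc1 and Tmc2 were below 1 FPKM.

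Opioid and cannabinoid receptors, through which analgesics act, were all under 10 FPKM. The genes Cnr1 (5.88 ± 1.24 FPKM), Oprl1 (5.84 ± 1.31 FPKM), Oprm1 (4.79 ± 1.33 FPKM) and Oprd1 (4.15 ± 0.815 FPKM) had overlapping ranges. Oprk1, the kappa receptor, was at 0.57, 0.50, 0.74 and 0.34 FPKM, below the other 3 opioid receptor genes in all libraries. In this group Oprm1, the receptor of morphine, was at 5.79, 6.07, 3.87 and 3.43 FPKM, lower in replicates 3 and 4.

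For neuropeptide receptors, 14 of 29 genes reached 1 FPKM and the median was 0.778 FPKM. The Y1 receptor gene Npy1r was at 15.7, 14.4, 12.2 and 13.2 FPKM and the Y2 receptor gene Npy2r at 5.82, 9.44, 7.14 and 6.71 FPKM. Npy1r was higher in every library, by a ratio of 2.69, 1.52, 1.70 and 1.96. Both were above the level of their ligand Npy in every library, and Npy5r was at 0.173 ± 0.0568 FPKM. The highest gene of the list was Ramp2, a partner of calcitonin-family receptors that vessels also express, at 16.4, 18.0, 49.5 and 57.8 FPKM. Like the endothelial markers (summed level 106, 107, 164 and 234 FPKM) and the macrophage markers (154, 151, 516 and 751 FPKM), it was higher in replicates 3 and 4, and their part in its level was not tested. Calcrl, the receptor that CGRP uses together with Ramp1, averaged 2.65 ± 0.509 FPKM, Ramp1 1.15 ± 0.561 FPKM, and Tacr1, the receptor of substance P, 0.0900 ± 0.0455 FPKM.

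Of 12 Mas-related receptors, 10 reached 1 FPKM. Mrgprd led, followed by Mrgprx1 (25.2 ± 1.13 FPKM) and the itch receptor gene Mrgpra3 (19.5 ± 2.98 FPKM). Members of this family are similar in sequence, so the split between them is uncertain. Mrgprb2, a receptor of mast cells, was at 0.0900 ± 0.0503 FPKM.

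Of 48 receptors for inflammatory mediators, 43 reached 1 FPKM. Il6st, the signalling chain shared by interleukin-6 family cytokines, was at 78.2, 90.2, 66.1 and 67.8 FPKM and Htr3a, a serotonin-gated channel, at 75.0, 76.4, 69.4 and 61.7 FPKM. Their ranges overlapped, and both lay above every value of the third gene, F2rl2. The list had a median of 7.14 FPKM, and 19 of the 48 reached 10 FPKM. Among the lower members were Ptger4 at 4.39 ± 0.499 FPKM, Il1r1 at 2.52 ± 0.446 FPKM and Bdkrb2 at 1.68 ± 0.330 FPKM. Bdkrb1 was at 0.0200 ± 0.0231 FPKM.

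All 10 receptors of neurotrophins and GDNF family ligands exceeded 10 FPKM. Ngfr, the p75 receptor of neurons and Schwann cells, was at 269, 270, 177 and 182 FPKM. Ntrk2, the BDNF receptor, was at 33.8, 35.3, 32.7 and 31.7 FPKM and Ntrk3, the NT-3 receptor of proprioceptors, at 17.1, 15.5, 10.9 and 10.1 FPKM. These ranges did not overlap.

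Among ionotropic receptors for transmitters, the kainate subunit gene Grik1 was highest at 83.5, 103, 76.6 and 81.4 FPKM. Grin1, the obligatory NMDA receptor subunit, averaged 32.2 ± 7.00 FPKM, whereas Grin2a, Grin2b and Grin2c, which encode partner subunits, had means from 0.0150 to 0.170 FPKM, and Grin2d averaged 1.01 ± 0.130 FPKM. The metabotropic list was led by the GABA-B subunits, with Gabbr1 at 131, 141, 96.7 and 95.5 FPKM and Gabbr2 at 52.6, 57.2, 40.3 and 40.6 FPKM. Their ratio was nearly the same in each library, at 2.48, 2.46, 2.40 and 2.35.

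Glial transcripts were among the most abundant of the ganglion. All 16 markers of myelinating Schwann cells exceeded 1 FPKM, and Mbp and Pmp22 were in the first 20 genes. Mbp, myelin basic protein, was at 933, 702, 2607 and 1568 FPKM, and Pmp22, peripheral myelin protein, at 1124, 937, 1674 and 1350 FPKM. All 16 markers were highest in replicate 3, and the summed level was 4879, 3702, 8646 and 6594 FPKM. Egr2, the transcription factor of myelination, was at 3.98, 3.85, 9.25 and 7.71 FPKM.

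Satellite glia were marked by Fabp7, a fatty acid-binding protein, at 251, 206, 350 and 188 FPKM, Glul, glutamine synthetase, at 125, 126, 213 and 223 FPKM, and Kcnj10, their potassium channel, at 20.6, 17.5, 28.7 and 19.6 FPKM. Apoe, which macrophages also express, was the most abundant of the list at 1559, 1331, 2712 and 2813 FPKM. Of the 5 markers of nonmyelinating Schwann cells, 4 were highest in replicate 2 and Gfap in replicate 3. The most abundant, Ngfr and L1cam, are also genes of neurons, and Scn7a was at 64.9, 70.5, 45.0 and 37.6 FPKM. Gfap, the astrocyte filament that satellite glia raise under stress, was at 0.540, 0.440, 1.08 and 0.650 FPKM.

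Markers of blood, fat, muscle, connective tissue and immune cells differed widely between libraries. The alpha-globin gene Hba-a1 was at 254, 250, 1807 and 1828 FPKM and the beta-globin gene Hbb-bs at 166, 141, 1118 and 1293 FPKM. Hemoglobin genes thus took 0.157%, 0.145%, 0.913% and 0.992% of all FPKM, and Hba-a1 ranked 26 by its mean although it ranked 182 in replicate 1. All 15 macrophage markers exceeded 1 FPKM by mean, and their summed level was 154, 151, 516 and 751 FPKM. Of these, 14 were highest in replicate 4, among them Cd74, the MHC class II chaperone, at 56.9, 57.8, 157 and 296 FPKM.

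The 9 fibroblast markers were all highest in replicate 4, with Dcn, decorin of the extracellular matrix, at 180, 183, 449 and 572 FPKM. The neutrophil genes S100a8 and S100a9 were highest in replicate 3, with S100a9 at 73.5, 77.7, 428 and 300 FPKM. Adipocyte markers were high in replicate 4 alone: Fabp4, the fatty acid-binding protein of fat cells, was at 8.99, 4.34, 11.99 and 138 FPKM and the hormone gene Adipoq at 0.730, 0.340, 0.920 and 13.8 FPKM. Muscle markers summed to 68.7, 8.62, 87.4 and 47.2 FPKM, lowest in replicate 2. Replicates 3 and 4 thus stood apart both in transcript length and in the level of blood, macrophage, fibroblast and myelin markers, and the part of these cells in the other values was not tested.

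**Figure D3:**
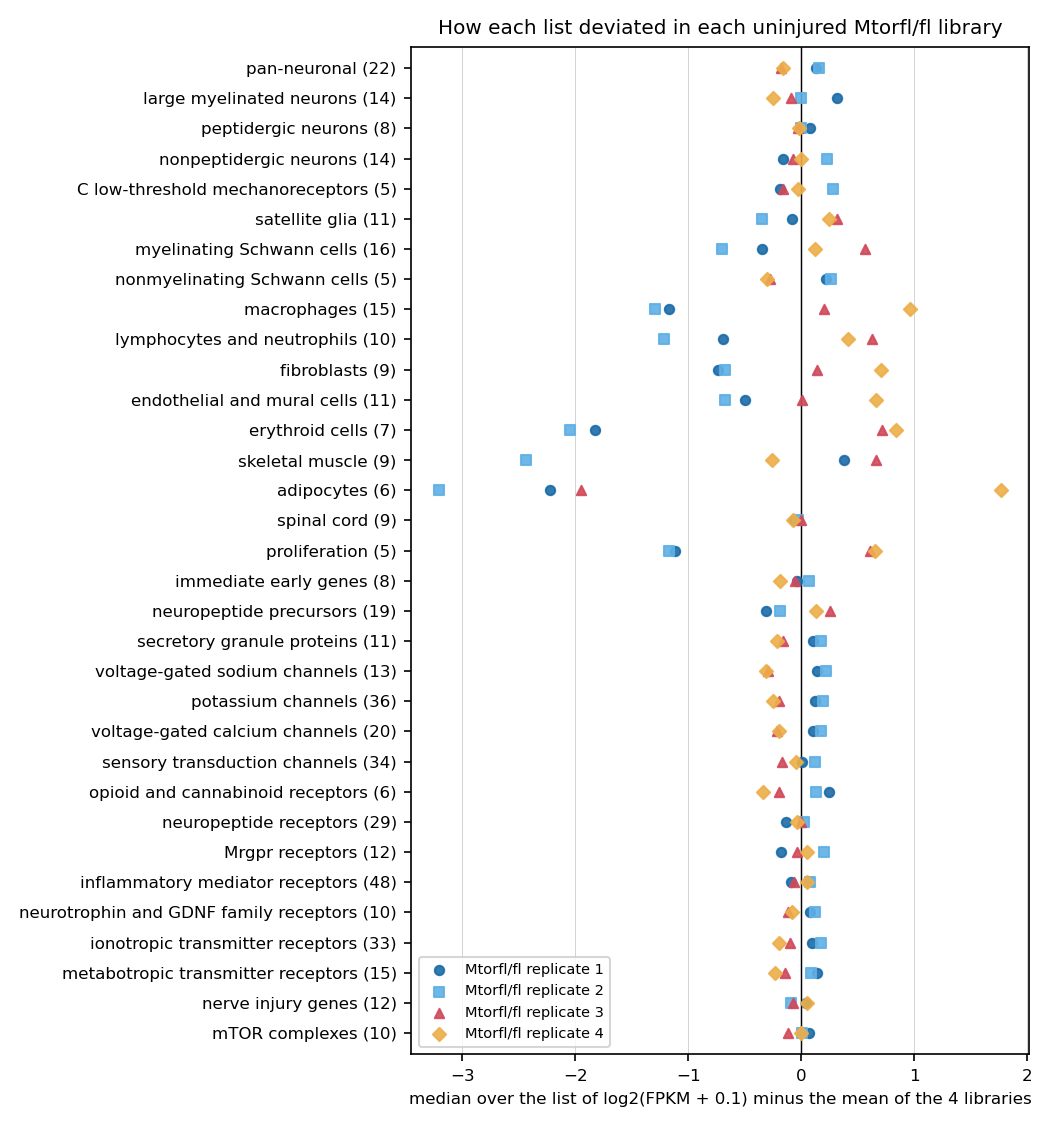
Median deviation of each marker or gene list (y axis, number of genes in parentheses) in each uninjured Mtorfl/fl library from the mean of the 4 libraries, as log2(FPKM + 0.1) (x axis, 0 is the mean). Each symbol is a library. Erythroid, macrophage and fibroblast lists lie left of 0 in replicates 1 and 2 and right of it in replicates 3 and 4, while the channel lists spread much less.

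The spread over the 4 mice can be read against these values. The median CV was 15.2% over genes that averaged 1 FPKM or more and 13.2% over those with at least 10 FPKM. With replicates 3 and 4 left out the first value was 5.32%, and with replicates 1 and 2 left out it was 6.80%. A CV of 2 values tends to be lower than a CV of 4, and these pairs were chosen after seeing the data. The biological coefficient of variation of the counts, estimated in edgeR, was 22.2% over all 4 libraries. Taken 2 libraries at a time, it was 7.85% for replicates 1 and 2 and 11.4% for replicates 3 and 4. For the other pairs it was 24.2% to 27.6%, so spread was larger between these 2 sets of libraries than within them. Of genes with at least 10 FPKM, 123 had a CV above 50% and 2384 had a CV below 10%.

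Among genes at 10 FPKM or more, the 3 largest CVs belonged to Cfd, Fabp4 and Car3, genes of fat. Cfd, the adipocyte protease adipsin, had 5.42, 1.43, 4.25 and 97.2 FPKM (CV 173%), and Car3, a carbonic anhydrase of fat and muscle, had 5.05, 3.19, 7.43 and 63.6 FPKM (CV 148%). Tmem254b, one of several near-identical copies, was high in replicate 2 alone, at 6.13, 35.3, 4.37 and 0.330 FPKM. Mt2, a metallothionein, was at 21.2, 18.5, 132 and 150 FPKM and Dbp, a transcription factor of the circadian clock, at 5.66, 3.62, 20.1 and 31.1 FPKM, both higher in replicates 3 and 4. The time of day of collection is not in the labels.

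At the other end, Gdi2, a regulator of Rab proteins, was at 189, 188, 188 and 187 FPKM (CV 0.420%), and Ywhae, a 14-3-3 protein, at 382, 384, 390 and 392 FPKM (CV 1.11%). These and Tuba1a were chosen for display after their values were seen. Of the first 100 genes, 34 were highest in replicate 3, 25 in replicate 4, 22 in replicate 2 and 19 in replicate 1. Over all genes that averaged 1 FPKM or more, the shares were 31.2%, 33.2%, 18.4% and 17.2% in that order, near these counts.

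The study's own pathway was expressed throughout. The kinase gene Mtor averaged 11.0 ± 3.34 FPKM in Mtorfl/fl libraries, with replicate 1 the highest. Its partners in complex 1 and complex 2, Rptor and Rictor, were at 10.6, 10.5, 8.34 and 9.05 FPKM and at 4.97, 4.84, 3.81 and 4.11 FPKM, so that Rptor was the higher in each library. Rheb, the GTPase that activates complex 1, was at 99.2 ± 15.4 FPKM. Of genes known to be raised by axon injury, Atf3, a stress transcription factor, was at 4.87, 4.21, 4.33 and 4.60 FPKM. Sprr1a was at 2.19, 2.25, 1.30 and 5.54 FPKM, and Gpr151 at 0.580, 0.510, 0.630 and 0.580 FPKM. Of 12 such genes, 4 averaged 10 FPKM or more, beside 6592 of all 19152 genes. That is a like share, so a low level before injury is not read as a trait of the list. Gap43, a growth cone protein, was the highest at 145 ± 8.97 FPKM.

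The 100 most abundant genes were then set against uninjured Mtor-cKO Adv DRG, to see which of them differed when Mtor was deleted in sensory neurons. In an edgeR quasi-likelihood test over 13408 genes, with Benjamini-Hochberg adjustment, 4 of the 100 passed both thresholds, a fold above 2 and an adjusted p under 0.05, all lower in Mtor-cKO Adv libraries, beside 1.65% of all genes tested. They were the neurofilament genes Nefl, Nefm and Nefh and the pump modulator gene Fxyd2. Nefl was at 779, 810, 770 and 814 FPKM in Mtor-cKO Adv libraries and at 2337, 2042, 1800 and 1736 FPKM in Mtorfl/fl libraries, a log2 fold change of -1.33 (standard error 0.15, edgeR adjusted p = 2.61e-05). The genotypes did not overlap, and the Mtor-cKO Adv libraries were much closer to each other.

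Nefm was at 480, 468, 444 and 386 FPKM in Mtor-cKO Adv libraries and at 1300, 1101, 727 and 752 FPKM in Mtorfl/fl libraries (log2 fold change -1.14, edgeR adjusted p = 0.00289). Nefh, the heavy chain of large axons, was at 303, 296, 285 and 266 FPKM in Mtor-cKO Adv libraries and at 804, 675, 466 and 455 FPKM in Mtorfl/fl libraries (log2 fold change -1.08, edgeR adjusted p = 0.00244). Fxyd2 was at 468, 491, 521 and 471 FPKM in Mtor-cKO Adv libraries and at 716, 1009, 1531 and 1457 FPKM in Mtorfl/fl libraries (log2 fold change -1.25, edgeR adjusted p = 0.000167). None of these groups overlapped. The size depended on the Mtorfl/fl libraries: against replicates 1 and 2 alone, the log2 fold changes of Nefm and Nefh were -1.52 and -1.45, and against replicates 3 and 4 alone they were -0.67 and -0.61, no longer 2-fold, with adjusted p still under 0.05. With Mtorfl/fl replicate 1 alone left out, Nefm (-0.94) and Nefh (-0.88) were no longer 2-fold lower, and with replicate 2 left out Nefh (-0.99) was not. Fxyd2 went the other way, at -0.91 against replicates 1 and 2 and -1.55 against replicates 3 and 4. The implied transcript lengths were 2008 bases for Nefl, 3256 for Nefm, 4028 for Nefh and 541 for Fxyd2. The part of transcript length in these differences was not tested.

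**Figure D4:**
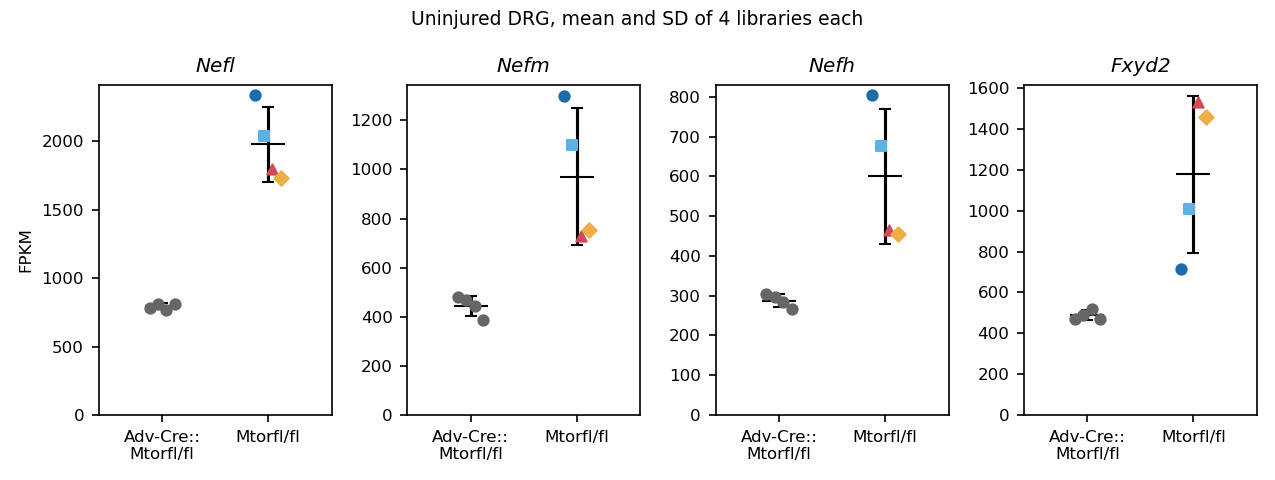
FPKM (y axes, from 0) of Nefl, Nefm, Nefh and Fxyd2 in uninjured Mtor-cKO Adv (Adv-Cre::Mtorfl/fl, grey) and Mtorfl/fl libraries (symbols by replicate: circle 1, square 2, triangle 3, diamond 4), 4 libraries each, with mean and SD. All Mtor-cKO Adv values lie below all Mtorfl/fl values, between 770 and 814 FPKM for Nefl against 1736 to 2337 FPKM.

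By the adjusted p alone, 14 of the 100 passed, beside 15.9% of all genes tested, a share close to that background. Of these, 10 were lower in Mtor-cKO Adv libraries, namely Nefl, Nefm, Nefh, Fxyd2, Ubb, Cd24a, Fstl1, Fxyd7, a second regulator of the sodium pump, and the Schwann cell myelin genes Mbp and Pmp22, and 4 were higher, Eef1a1, Hsp90ab1, Prph and Tubb5. Mbp averaged 705 ± 27.3 FPKM in Mtor-cKO Adv libraries and 1452 ± 852 FPKM in Mtorfl/fl libraries, with overlap (log2 fold change -0.99, edgeR adjusted p = 0.0489). With Mtorfl/fl replicates 3 and 4 left out, the log2 fold changes of Mbp and Pmp22 were -0.29 and -0.24 (edgeR adjusted p = 0.529 and 0.218). With replicates 1 and 2 left out, they were -1.49 and -0.64 (edgeR adjusted p = 0.00347 and 0.00375). Of 16 markers of myelinating Schwann cells, 4 passed the adjusted p as lower and none as higher, beside 1061 lower and 1069 higher of all 13408 genes tested. The median log2 fold change of the 16 markers was -0.55. The part of these cells in the neurofilament difference was not tested. Peripherin, the filament of small neurons, differed in the other direction from the neurofilaments: Prph averaged 1167 ± 33.0 FPKM in Mtor-cKO Adv libraries and 906 ± 46.8 FPKM in Mtorfl/fl libraries (log2 fold change 0.36, edgeR adjusted p = 0.0223). Over settings that adjusted p ran from 0.00174 to 0.152, and 1 of 4 called genes, Nefl, passed both thresholds in every setting run. The median log2 fold change was -0.09 over the 100 genes and -0.01 over all genes tested. Because the 100 genes were ranked on the same Mtorfl/fl libraries that they are set against here, the ranking itself favours lower values in the other group, and nothing is read from this median or from the balance of directions.

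Set against Mtorfl/fl DRG 7 days after SNI, none of the 100 genes passed both thresholds in edgeR, beside 1.2% of all genes tested. There were 20 at an unadjusted edgeR p under 0.05, but the share over all genes was not computed at that cut, so nothing is read from this count. DESeq2 called none past both thresholds. By the adjusted p alone 7 passed, beside 7.24% of all genes tested. Both contrasts use the same 4 Mtorfl/fl baseline libraries. The genes that were higher after SNI were Tuba1a, Stmn2, Tubb2a, Tubb5, Anxa2 and S100a10, and Snap25, a protein of synaptic release, was lower.

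Stmn2 was at 1350, 1323, 1700, 1283 and 1293 FPKM after SNI and at 927, 948, 916 and 902 FPKM before injury (log2 fold change 0.60, edgeR adjusted p = 0.00112), with no overlap. Tuba1a averaged 4164 ± 441 FPKM after SNI (n = 5) and 3055 ± 64.3 FPKM before injury (n = 4), also with no overlap (log2 fold change 0.46, edgeR adjusted p = 0.00545). Over the settings run, the adjusted p ran from 3.37e-08 to 0.035 for Stmn2 and from 5.38e-06 to 0.077 for Tuba1a. The highest value was 0.0488 for Tubb2a, but it was 0.12 for Anxa2, 0.179 for S100a10, 0.22 for Tubb5 and 0.238 for Snap25, so these 4 and Tuba1a did not pass in every setting. With Mtorfl/fl replicates 3 and 4 left out, the globin genes Hba-a1, Hba-a2 and Hbb-bs passed both thresholds as higher after SNI, and with replicates 1 and 2 left out Mbp passed as lower. The globin and Mbp levels of the 2 pairs of baseline libraries differed, as given above. Npy was at 127, 112, 332, 156 and 130 FPKM after SNI, at most 0.190 FPKM in uninjured Mtor-cKO Adv libraries, and between 1.26 and 3.93 FPKM in uninjured Mtorfl/fl libraries.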

How the data were processed

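DRGs of Mtorfl/fl and Mtor-cKO Adv mice were sequenced on a BGISEQ-500. The submitters' processing notes name HISAT2 2.0.4, Bowtie2 2.2.5 and RSEM 1.2.12 with mm9, whereas the study's methods name another build, GRCm38.p5, so no coordinates depend on their alignment. The deposited expected count values are RSEM estimates per gene made by the authors, and 34.2% are not whole numbers. The deposited FPKM values were scaled by the authors to transcript length and library size, which lets depth differences cancel but leaves length-dependent recovery in the values. Of the table, 1 unnamed entry with 0 counts was left out, 27 symbols were mended by gene ID, and 19020 of 19152 genes matched RefSeq. A further 76 per-sample columns under another library numbering were not used here.

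Genes were ranked by the mean FPKM of 4 libraries, with SD and CV. A pseudocount of 0.1 FPKM was used on the log2 scale. After rounding of the expected counts, the 17 libraries went into one edgeR 4.0.16 model (R 4.3.3) with a term for each of the groups, TMM scaling and the quasi-likelihood test, restricted to genes that averaged 1 FPKM or more in any group. The fit was first tested on simulated counts. These held no length-linked split between libraries, so that run cannot show how the fit behaves under such a split. DESeq2 1.42.0, RLE normalization, other filters, a replicate block and left-out libraries were alternatives. Standard errors were derived from each F statistic and its fold change. Tables and figures were made with Python 3.11.15, pandas 2.3.3, NumPy 2.4.6, SciPy 1.17.1 and Matplotlib 3.10.9.

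Genes named are the 30 most abundant, the highest members of each of 34 lists (6 or 20) and up to 4 members under 1 FPKM, the 15 largest CVs, members of the first 100 called in a contrast, and Mtor, Npy, Npy1r and Npy2r. Others were named after their values were seen. The members, lists and tests were chosen with earlier results of these data known. Some genes that fall under this rule are not reported here.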

Additional observations from a re-analysis of the deposited data

Results flagged for a closer look

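Over the 4 uninjured Mtorfl/fl libraries, 235 values were screened (201 genes and 34 list sums). Of these, 16 had a single library farther from the other 3 than the 95% limit for 4 values. Chance alone gives about 1 in 20 for independent values not chosen by their spread, and that rate does not apply here. Cfd, Fabp4, Car3 and Tmem254b were screened for their large CV over the same libraries. Adipocyte genes and their sum were also counted separately. The count is therefore only a description. Replicate 4 was the odd one in 8 of the 16 flagged values. It was the highest for Fabp4 (138 FPKM), Cfd (97.2 FPKM), Car3 (63.6 FPKM), Adipoq (13.8 FPKM), Cidec (12.3 FPKM), the summed adipocyte markers (265 FPKM) and Ywhah (1189 FPKM), and the lowest for Hspa8 (1497 FPKM). Replicate 2 was the highest for Tmem254b (35.3 FPKM), Gfra2 (64.3 FPKM), Slc17a8 (4.77 FPKM), Egr1 (13.7 FPKM) and the summed markers of nonpeptidergic neurons (774 FPKM). Replicate 1 was the highest for Mtor (15.97 FPKM) and Etv1 (48.4 FPKM), and replicate 3 was the lowest for Csf1 (4.96 FPKM).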

How the results depend on the processing

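The 12932 genes at a mean of 1 FPKM were 12801 to 13039 with 1 library left out, 14202 after TPM scaling and 6592 at a threshold of 10 FPKM. The share of the first 100 genes was 21.1% to 21.5% with 1 library left out and 21.9% with replicates 1 and 2 left out, and the median CV of 15.2% was 14.2% to 15.4% with 1 left out, 5.32% without replicates 3 and 4 and 6.80% without replicates 1 and 2. Of the first 100 genes, 97 were kept with any 1 library left out, 87 without replicates 3 and 4, 91 without replicates 1 and 2, and 62 when ranked by counts not divided by length. Leaving out both libraries of a pair was chosen after seeing the data.

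Against Mtor-cKO Adv, the number of calls was 3 to 6 over all settings and 3 to 4 with 1 library left out, but not always for the same genes. Without Mtorfl/fl replicates 1 and 2, the 6 were Nefl, Fxyd2, Mbp, Hba-a1, Hba-a2 and Hbb-bs. Without replicate 1 they were Nefl, Fxyd2 and Mbp, and without replicate 2 Nefl, Nefm, Fxyd2 and Mbp. The 14 genes by adjusted p alone were 24 in DESeq2, 9 with the 2 groups only, 39 without Mtorfl/fl replicates 1 and 2, and 9 to 20 with 1 library left out (9 without Mtor-cKO Adv replicate 2 or Mtorfl/fl replicate 3). Against day 7, the 0 calls were 3 and 1 without replicates 3 and 4 or 1 and 2. The 7 genes by adjusted p alone were 14 in DESeq2, 2 with the 2 groups only, 21 and 13 with those pairs left out, and 4 to 14 with 1 library left out (4 without Mtorfl/fl replicate 1 or day 7 replicate 3, 14 without day 7 replicate 5). Of 343 values recomputed for 21 gene results, 272 stayed on their side of the adjusted p, 71 lost it and 0 changed sign. The causes were not tested.

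Replicate numbers are shared between groups but the mice differ, so the numbers were not taken as pairs. Same-numbered deviations correlated at -0.10 to 0.62 against Mtor-cKO Adv and at 0.08 to 0.60 against day 7. Correlations between differently numbered libraries were not computed, so these values cannot show whether a number carries a shared effect. With the replicate block, 4 and 0 genes were called, and 26 and 15 passed the adjusted p alone.

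Of 136 list deviations, 132 moved by less than the SD over libraries with a pseudocount of 1 FPKM. Genes under 1 FPKM rest on few counts, and 4 mice limit what spread can be seen.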
